A study of Mus musculus with 10 samples.

Results

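The genes described here are 34 markers of Kupffer cells and other macrophages, followed through arrays of mouse liver sinusoidal endothelial cells. They were taken as a list of symbols and found in the deposited table by the gene annotation of its rows, which are named by Entrez gene number. In all, 33 of the 34 were measured, of 24704 genes tested, and Lyz2 was not analysed here. For the description they were grouped by role into 8 Kupffer cell identity genes, 3 iron and haem genes, 3 C1q chains, 5 shared surface and lysosome genes, 4 Fc receptor genes, 2 genes of lipopolysaccharide sensing, 3 shared myeloid genes and 5 genes of recruited or lipid-associated macrophages.

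The study compared endothelial cells of a knockout with those of sibling control mice, with 5 arrays per group and the cells of 3 mice pooled for each array. In the Gata4-LSEC-KO group, mice of the line C57BL/6N-Tg(Clec4g-icre)1.1Sgoe, in which Clec4g sequences drive an improved Cre recombinase, had been bred with mice of the floxed Gata4 allele Gata4tm1.1Sad, so that the zinc finger transcription factor gene Gata4 is recombined where Clec4g is active. The control group is labelled control or WT, and the labels do not say whether its mice carried the Cre transgene or a floxed allele, nor do they give age or sex. Livers of both groups were perfused with collagenase, nonparenchymal cells were taken from a Nycodenz gradient, and endothelial cells were pulled out with CD146 MicroBeads, whose target is encoded by Mcam. The arrays therefore read the RNA of a bead fraction as a whole: in such bulk samples, fewer cells of a type and less RNA per cell cannot be told apart. Gata4 itself had log2 values of 8.59 ± 0.24 in Gata4-LSEC-KO and 8.71 ± 0.15 in control arrays (SD, n = 5 each), a difference that did not pass the test (adjusted p = 0.742). Where its probes lie against the deleted exons is not stated, so this value does not check the labels.

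Kupffer cells are the resident macrophages of the liver. They sit inside the sinusoids, attached to the endothelium, and clear particles, worn red blood cells and bacterial products from portal blood. As background, their survival depends on colony stimulating factor 1, sensed by the receptor Csf1r, and their identity on signals of the surrounding endothelial and stellate cells that maintain the nuclear receptor Nr1h3 (LXR alpha). When Kupffer cells are lost, monocytes enter the niche and take on resident marker genes step by step, Timd4 being among the late ones. Clec4f, Vsig4, Cd5l, Timd4, Folr2 and Marco are used as resident markers, Adgre1, Csf1r and the C1q chains are shared by most macrophages, and Trem2, Gpnmb and Itgax are used for recruited and lipid-associated macrophages.

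The upstream sequence of 4 members is given for genes used in the comparisons below. The complement chain genes C1qb and C1qc are part of the mean of 5 genes taken as an array's macrophage level, and Cd163 and Clec4f are among the genes set against that mean. They come from RefSeq on GRCm38.p6, run 5′ to 3′ on the gene's own strand up to the last base before its start, and are chr4:136886201-136886450 (minus strand), chr4:136892937-136893164 (minus strand), chr6:124304401-124304635 (plus strand) and chr6:83656117-83656366 (minus strand). Capitals mark GAGGAA or its reverse complement TTCCTC, the purine-rich core typical of sites of PU.1, the myeloid transcription factor encoded by Spi1.
C1qb: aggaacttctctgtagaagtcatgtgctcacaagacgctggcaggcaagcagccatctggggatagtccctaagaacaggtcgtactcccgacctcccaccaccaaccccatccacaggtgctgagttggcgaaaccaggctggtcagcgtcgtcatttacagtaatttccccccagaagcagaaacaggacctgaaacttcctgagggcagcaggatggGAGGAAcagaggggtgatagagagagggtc
C1qc: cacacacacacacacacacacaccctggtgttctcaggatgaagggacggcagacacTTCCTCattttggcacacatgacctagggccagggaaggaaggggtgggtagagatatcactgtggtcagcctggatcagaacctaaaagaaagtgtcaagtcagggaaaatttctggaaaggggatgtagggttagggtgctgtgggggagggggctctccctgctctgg
Cd163: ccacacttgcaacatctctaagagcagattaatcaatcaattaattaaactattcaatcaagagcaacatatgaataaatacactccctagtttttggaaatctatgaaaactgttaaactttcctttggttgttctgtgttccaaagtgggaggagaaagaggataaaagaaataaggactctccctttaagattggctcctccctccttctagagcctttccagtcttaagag
Clec4f: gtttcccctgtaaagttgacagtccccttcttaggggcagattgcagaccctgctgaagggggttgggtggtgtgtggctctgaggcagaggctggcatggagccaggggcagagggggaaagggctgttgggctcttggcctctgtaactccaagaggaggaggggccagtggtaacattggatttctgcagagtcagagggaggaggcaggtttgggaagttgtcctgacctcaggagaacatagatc
C1qb and C1qc each held 1 match and Cd163 and Clec4f held 0. Among the 22 measured members with a RefSeq upstream entry, the first 250 bases of the entry held the motif on either strand in 11 (50%), against 25.5% of 18383 genes. For such shares the 250 bases were not cut where they ran into the annotated gene, as the sequences shown were. The longer GAGGAAGT, whose reverse complement is ACTTCCTC, was in 1 of the 22 (4.55%, C1qc) and in 2.73% of all genes. A match is a string of letters, and binding at these places was not measured here.

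Values below are deposited log2 values after robust multi-array averaging (RMA), in which all arrays share a median of 3.71. Differences are Gata4-LSEC-KO minus control, so a value of 1 is a 2-fold change, and they were tested with limma, with Benjamini-Hochberg adjustment over all genes and a threshold of 0.05. Different genes are read by different probes, so levels are compared between arrays and not between genes. Each p-value rests on how pools of 3 mice differ from one another.

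None of the 33 macrophage genes passed the test. In the same fit 2.14% of all genes did (529), with 320 higher (1.3%) and 209 lower (0.846%) in Gata4-LSEC-KO arrays. An unadjusted p under 0.05 was found for 4 of the 33 (Msr1, Laptm5, Gpnmb and Itgax), a share below the 13.6% of all genes. The log2 difference was above 0 for 26 members and below 0 for 7, with a median of 0.27, beside a median of -0.02 over all genes. These signs lean on 1 array: without control replicate 1, 21 members were above 0 and the median was 0.09, again with 0 members past the threshold, when 2.98% of all genes passed it. In that fit 7 members had an unadjusted p under 0.05, against 15.5% of all genes. In 0 of 33 members did the values of the 2 groups fail to overlap (4.93% of all genes), and without control replicate 1 this held for Fcer1g alone (7.75% of all genes).

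Control replicate 1 was the array in which macrophage genes were lowest. This was known when the list was taken, so what follows is a description. Of the 33 members, 19 had their lowest value there, against 23.6% of all genes. Its log2 value minus the mean of the other 4 controls was -3.15 for Timd4, -2.93 for C1qb, -2.92 for Adgre1, -2.59 for Vsig4, -2.57 for Cd5l, -2.20 for Cd68 and -2.09 for Csf1r. It was not low in every member, and the same measure was 1.34 for Lgals3, 0.93 for Trem2, 0.77 for Itgax, 0.43 for Spi1 and -0.02 for Msr1. Over all genes its correlation with the other arrays was 0.920 to 0.944, while the other 9 correlated with each other at 0.969 to 0.988. The stellate cell markers moved with it, since 9 of 10 were lowest in that array and their mean there was 5.26, beside 6.56 to 7.11 in the other controls. Whether this array's cell make-up accounts for its low macrophage genes was not tested. At the other end, 13 members were highest in Gata4-LSEC-KO replicate 2 and 13 in control replicate 4, against 2187 and 2040 of all 24704 genes.

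**Figure D1:**
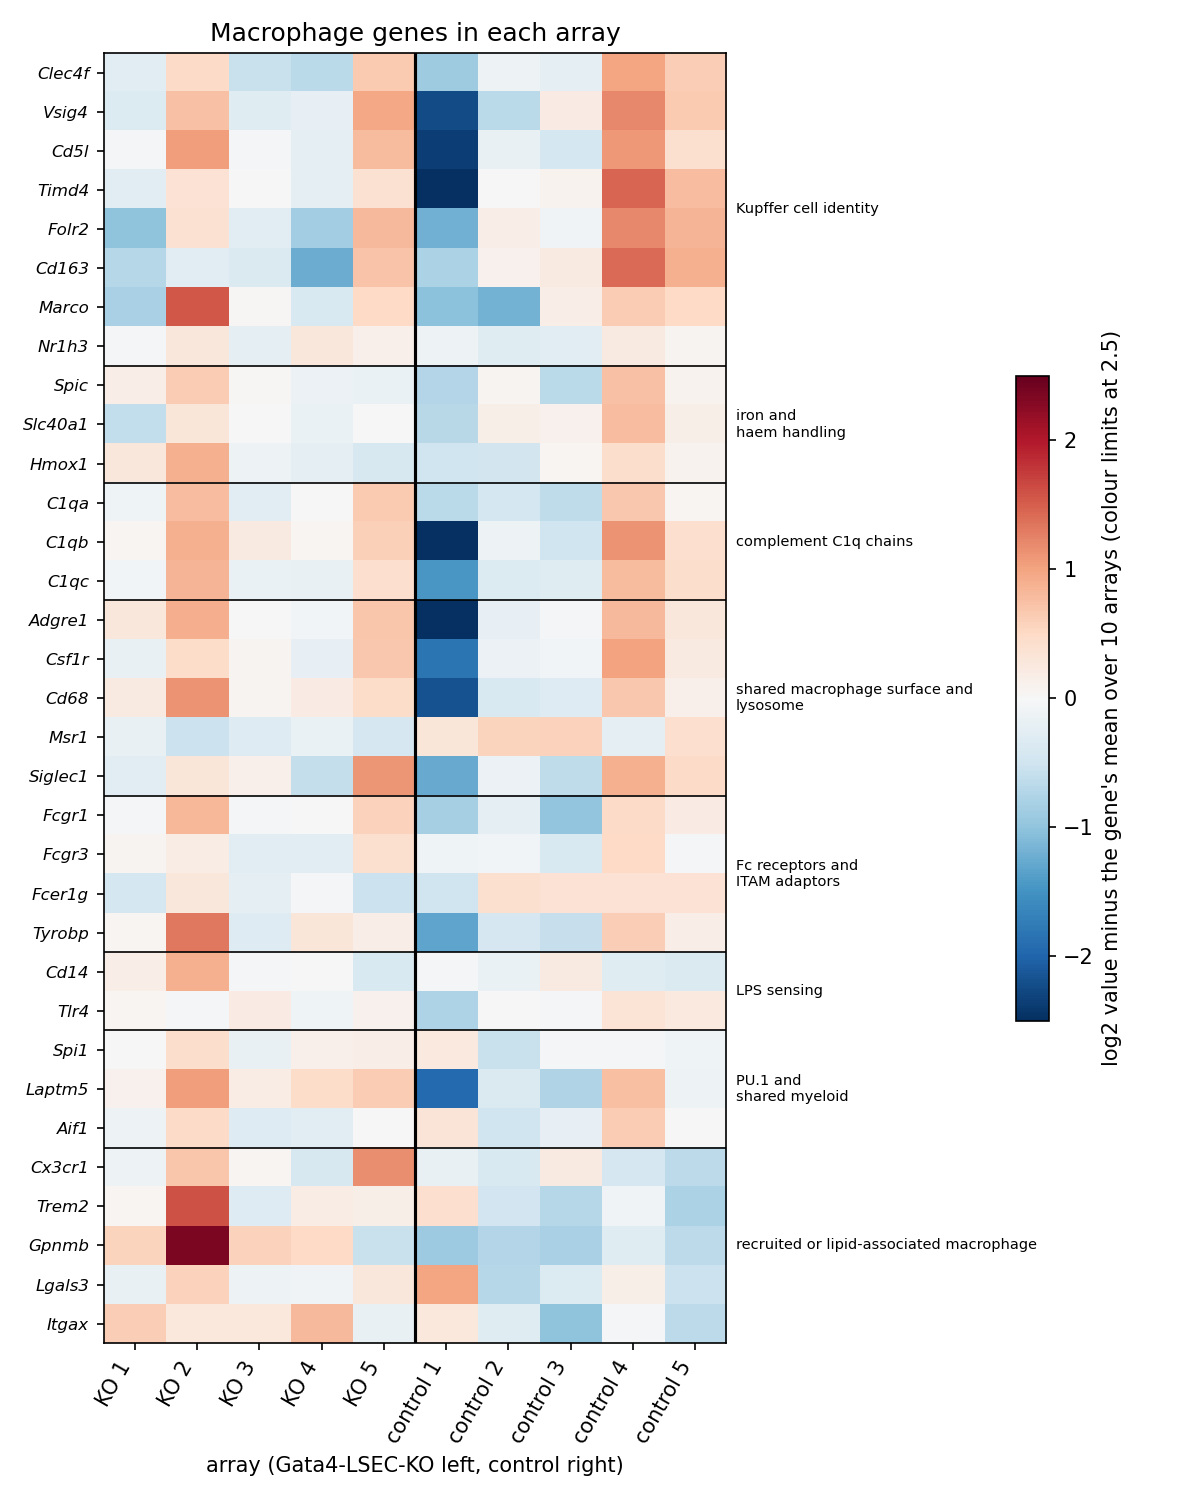
Heat map of the 33 measured macrophage genes (rows, grouped by role) in the 10 arrays (columns, Gata4-LSEC-KO left of control). Colour is the log2 value minus the gene's mean over all 10 arrays. Control replicate 1 is the lowest array for 19 genes, while Lgals3 is highest there at 8.16, and control replicate 4 and Gata4-LSEC-KO replicate 2 hold the highest value of 13 genes each.

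None of the 8 Kupffer cell identity genes passed, and for each of them the group means differed by less than the larger of the 2 group SDs. Clec4f, a C-type lectin found on Kupffer cells in mice, was at 8.24, 8.998, 7.96, 7.83 and 9.18 in Gata4-LSEC-KO arrays 1 to 5, against 7.64, 8.39, 8.28, 9.50 and 9.14 in control arrays 1 to 5. The lowest and the highest of these 10 values were both controls, and the log2 difference was -0.15 ± 0.37 (SE, adjusted p = 0.902). Vsig4, the complement receptor of Kupffer cells that captures opsonised bacteria, was at 7.18, 8.26, 7.22, 7.33 and 8.49 in Gata4-LSEC-KO arrays, against 5.28, 6.85, 7.73, 8.73 and 8.19 in control arrays. Its difference was 0.34 ± 0.56 (adjusted p = 0.843), and -0.18 without control replicate 1. Cd5l, a secreted scavenger receptor protein also called AIM, had 7.99, 9.07, 7.99, 7.78 and 8.82 in Gata4-LSEC-KO arrays, against 5.67, 7.84, 7.58, 9.10 and 8.42 in control arrays. Here too control replicate 1 stood lowest, and leaving it out brought the difference of 0.60 ± 0.53 (adjusted p = 0.68) to 0.09.

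Timd4, the phosphatidylserine receptor TIM-4 that marks long-lived resident macrophages, was at 5.67, 6.33, 5.95, 5.74 and 6.34 in Gata4-LSEC-KO arrays, against 3.39, 5.97, 6.05, 7.41 and 6.73 in control arrays. The knockout values lay within a narrow band (SD 0.32), while the controls ran from the lowest to the highest of the 10 (SD 1.52). The difference of 0.10 ± 0.59 (adjusted p = 0.964) became -0.53 without control replicate 1 (adjusted p = 0.41), so its direction rests on that array. Folr2, folate receptor beta, was at 5.52, 6.90, 6.24, 5.65 and 7.34 in Gata4-LSEC-KO arrays, against 5.32, 6.69, 6.44, 7.71 and 7.38 in control arrays. Its difference was -0.38 ± 0.46 (adjusted p = 0.78), or -0.72 without control replicate 1 (adjusted p = 0.418), a value more than 1.5 times as large that did not pass either.

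Cd163, the scavenger receptor for haptoglobin-haemoglobin complexes, had the most negative difference of all members. It was at 5.21, 5.65, 5.57, 4.68 and 6.63 in Gata4-LSEC-KO arrays, against 5.14, 6.03, 6.15, 7.33 and 6.82 in control arrays, and averaged 5.55 ± 0.72 in Gata4-LSEC-KO and 6.29 ± 0.83 in control arrays (SD, n = 5 each). Of the knockout arrays 4 lay below all controls but replicate 1, and knockout replicate 5 lay among the controls. The difference was -0.74 ± 0.42 (adjusted p = 0.495) and -1.03 without control replicate 1 (adjusted p = 0.186), and without control replicate 4 it was -0.49. Marco, a scavenger receptor for bacteria and particles, ranged from 5.23 to 7.59 in Gata4-LSEC-KO and from 4.84 to 6.67 in control arrays, with a difference of 0.36 ± 0.47 (adjusted p = 0.795). That difference was 0.15 without control replicate 1 and 0.02 without knockout replicate 2. Nr1h3, the nuclear receptor that maintains Kupffer cell identity, varied least in this group, averaging 5.68 ± 0.23 in Gata4-LSEC-KO and 5.52 ± 0.23 in control arrays (difference 0.16 ± 0.14, adjusted p = 0.68).

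Iron and haem genes of macrophages did not separate the groups either. Spic, a transcription factor of red pulp and other iron-recycling macrophages, averaged 3.89 ± 0.33 in Gata4-LSEC-KO and 3.67 ± 0.61 in control arrays, close to the array median (difference 0.21 ± 0.27, adjusted p = 0.792, and 0.05 without control replicate 1). The iron exporter gene Slc40a1 (ferroportin) averaged 8.87 ± 0.33 in Gata4-LSEC-KO and 9.06 ± 0.52 in control arrays, a difference of -0.19 ± 0.25 (adjusted p = 0.794) that was -0.39 without control replicate 1 and -0.02 without control replicate 4. Hmox1, haem oxygenase 1, ranged from 7.55 to 8.83 in Gata4-LSEC-KO and from 7.46 to 8.39 in control arrays. Its highest values were in knockout replicate 2 and control replicate 4, the arrays with most of the highest macrophage values, and the difference was 0.15 ± 0.26 (adjusted p = 0.843), 0.05 without control replicate 1 and -0.05 without knockout replicate 2. All 3 genes had their lowest value in control replicate 1.

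The chains of C1q, the first component of the classical complement pathway, are made in the liver mainly by macrophages. C1qa was at 7.35, 8.23, 7.20, 7.45 and 8.11 in Gata4-LSEC-KO arrays, against 6.79, 7.02, 6.82, 8.12 and 7.51 in control arrays. C1qb was at 7.74, 8.58, 7.92, 7.74 and 8.29 in Gata4-LSEC-KO arrays, against 5.00, 7.58, 7.19, 8.82 and 8.11 in control arrays. C1qc was at 7.68, 8.60, 7.59, 7.57 and 8.16 in Gata4-LSEC-KO arrays, against 6.30, 7.42, 7.46, 8.55 and 8.18 in control arrays. All 3 chains were lowest in control replicate 1 and above 8 in knockout replicates 2 and 5 and control replicate 4. Differences were 0.41 ± 0.29 for C1qa (adjusted p = 0.589), 0.71 ± 0.56 for C1qb (adjusted p = 0.644) and 0.34 ± 0.37 for C1qc (adjusted p = 0.748). Without control replicate 1 they were 0.30, 0.13 and 0.02 in the same order, so that most of the C1qb and C1qc differences came with that array.

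Among the shared surface and lysosome genes, Adgre1, an adhesion G protein-coupled receptor long used as a macrophage marker in mice, was at 6.74, 7.37, 6.48, 6.39 and 7.16 in Gata4-LSEC-KO arrays, against 3.75, 6.25, 6.44, 7.27 and 6.75 in control arrays. Control replicate 1 sat near the array median while the other 9 lay between 6.25 and 7.37. The difference of 0.74 ± 0.54 (adjusted p = 0.611) shrank to 0.15 without that array. Csf1r, the receptor on which macrophage survival depends, was at 7.32, 7.96, 7.57, 7.30 and 8.17 in Gata4-LSEC-KO arrays, against 5.67, 7.36, 7.44, 8.50 and 7.74 in control arrays. Its difference was 0.32 ± 0.42 (adjusted p = 0.794) and -0.09 without control replicate 1. Cd68, a lysosomal membrane glycoprotein, was at 7.28, 8.19, 7.12, 7.25 and 7.50 in Gata4-LSEC-KO arrays, against 4.88, 6.67, 6.73, 7.73 and 7.19 in control arrays. Each knockout value exceeded at least 3 of the 5 controls, and the difference was 0.83 ± 0.44 (adjusted p = 0.462), or 0.39 without control replicate 1. Siglec1, the sialic acid receptor CD169, ranged from 4.67 to 6.36 in Gata4-LSEC-KO and from 4.01 to 6.15 in control arrays (difference 0.27 ± 0.41, adjusted p = 0.829, and -0.01 without control replicate 1).

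Msr1, scavenger receptor A, which takes up modified lipoproteins, was the member with the smallest p. It was at 9.17, 8.82, 9.04, 9.20 and 8.95 in Gata4-LSEC-KO arrays, against 9.67, 9.93, 9.95, 9.12 and 9.79 in control arrays. Control replicate 4 was the 1 control inside the knockout range, and the other 4 controls lay above every knockout array. Means were 9.03 ± 0.16 in Gata4-LSEC-KO and 9.69 ± 0.34 in control arrays (SD, n = 5 each), and the difference of -0.65 ± 0.16 missed the threshold (adjusted p = 0.0652). Over 18 alternative settings its adjusted p ran from 0.00164 to 0.183 and was past the threshold in 6, among them the fit without control replicate 4 (difference -0.80, adjusted p = 0.00979). The 0.00164 came from centring each array on other macrophage genes without control replicate 1, where a gene's own spread did not enter its p. Control replicate 4, where Msr1 was lowest among the controls, is the array in which 13 other members were highest.

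**Figure D2:**
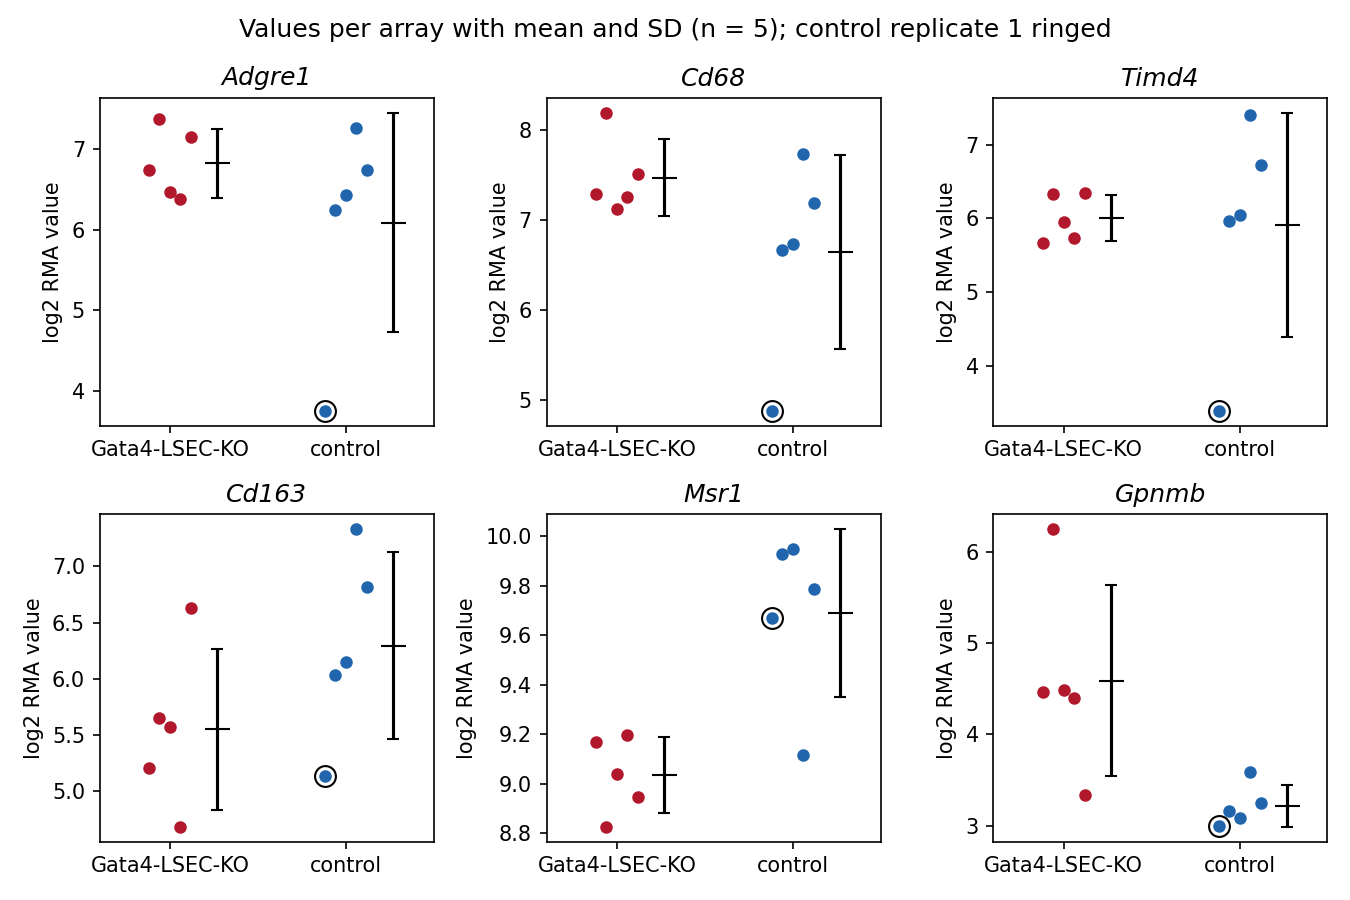
Log2 RMA values of Adgre1, Cd68, Timd4, Cd163, Msr1 and Gpnmb in each array, Gata4-LSEC-KO left and control right, with the group mean and SD (n = 5 each) beside the points and control replicate 1 ringed. Control replicate 1 lies far below the other arrays in Adgre1, Cd68 and Timd4, at 3.75, 4.88 and 3.39, but among them in Msr1. Of the 5 Gpnmb values in Gata4-LSEC-KO arrays, 4 lie above all controls.

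The Fc receptor genes gave 3 differences above 0 and 1 below. Fcgr1, the high-affinity IgG receptor gene, averaged 5.80 ± 0.40 in Gata4-LSEC-KO and 5.25 ± 0.64 in control arrays (difference 0.54 ± 0.29, adjusted p = 0.473). Fcgr3, a low-affinity IgG receptor gene, averaged 4.64 ± 0.30 in Gata4-LSEC-KO and 4.60 ± 0.32 in control arrays (difference 0.04 ± 0.18, adjusted p = 0.956). Tyrobp, the signalling adaptor DAP12, was at 6.13, 7.41, 5.78, 6.40 and 6.27 in Gata4-LSEC-KO arrays, against 4.77, 5.67, 5.52, 6.71 and 6.27 in control arrays (difference 0.61 ± 0.37, adjusted p = 0.528), and without control replicate 1 its difference was 0.36. Fcer1g, the common Fc receptor gamma chain and the partner of Fcgr1 and Fcgr3, stood apart from them, at 8.09, 8.82, 8.29, 8.52 and 7.99 in Gata4-LSEC-KO arrays, against 8.04, 8.94, 8.89, 8.89 and 8.90 in control arrays. The 4 controls from replicate 2 to 5 lay between 8.89 and 8.94, above all knockout arrays, while control replicate 1 lay with the knockouts. The difference was -0.39 ± 0.21 (adjusted p = 0.463), and -0.56 without control replicate 1 (adjusted p = 0.0916), still short of the threshold.

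Genes of lipopolysaccharide sensing and of shared myeloid identity gave no calls. Cd14, the lipopolysaccharide co-receptor, averaged 7.19 ± 0.47 in Gata4-LSEC-KO and 6.93 ± 0.23 in control arrays (difference 0.26 ± 0.21, adjusted p = 0.657), and Tlr4, the receptor itself, 7.08 ± 0.12 in Gata4-LSEC-KO and 6.99 ± 0.44 in control arrays (difference 0.09 ± 0.19, adjusted p = 0.88). Spi1 averaged 5.76 ± 0.23 in Gata4-LSEC-KO and 5.55 ± 0.29 in control arrays (difference 0.21 ± 0.16, adjusted p = 0.621). Aif1, the calcium-binding protein IBA1, averaged 5.41 ± 0.32 in Gata4-LSEC-KO and 5.51 ± 0.44 in control arrays (difference -0.10 ± 0.22, adjusted p = 0.877). Laptm5, a lysosomal protein of blood cells in general, was at 7.45, 8.39, 7.53, 7.81 and 7.97 in Gata4-LSEC-KO arrays, against 5.40, 6.99, 6.59, 8.10 and 7.22 in control arrays. Its knockout values exceeded 4 of the 5 controls and were overtaken by control replicate 4 in all but replicate 2, with a difference of 0.97 ± 0.40 (adjusted p = 0.307) or 0.61 without control replicate 1.

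All 5 genes of recruited or lipid-associated macrophages had differences above 0, and none passed. Gpnmb, a transmembrane glycoprotein of lipid-laden macrophages, had the largest difference of all members. It was at 4.46, 6.25, 4.48, 4.40 and 3.34 in Gata4-LSEC-KO arrays, against 2.99, 3.16, 3.08, 3.59 and 3.25 in control arrays, so knockout replicate 2 was far above the rest and knockout replicate 5 lay among the controls, which were all near or under the array median. Means were 4.59 ± 1.05 in Gata4-LSEC-KO and 3.21 ± 0.23 in control arrays (SD, n = 5 each), with a difference of 1.37 ± 0.41 (adjusted p = 0.13). Leaving out knockout replicate 5 put it past the threshold (difference 1.68, adjusted p = 0.0342).

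Itgax, the integrin chain CD11c, was at 4.03, 3.67, 3.68, 4.22 and 3.22 in Gata4-LSEC-KO arrays, against 3.68, 3.12, 2.41, 3.37 and 2.76 in control arrays, with both groups around the array median or under it. The difference was 0.70 ± 0.25 (adjusted p = 0.217) and 0.85 without control replicate 1 (adjusted p = 0.0776). Trem2, a lipid receptor needed for the lipid-associated macrophage programme, was at 4.85, 6.40, 4.48, 4.99 and 4.96 in Gata4-LSEC-KO arrays, against 5.22, 4.34, 4.09, 4.73 and 4.02 in control arrays, where knockout replicate 2 was alone in exceeding 6. Its difference was 0.66 ± 0.34 (adjusted p = 0.453), or 0.34 without that array. Cx3cr1, the fractalkine receptor of monocytes and monocyte-derived cells, was at 4.84, 5.66, 5.00, 4.57 and 6.13 in Gata4-LSEC-KO arrays, against 4.78, 4.59, 5.19, 4.54 and 4.32 in control arrays, and knockout replicates 2 and 5 were the high ones (difference 0.56 ± 0.28, adjusted p = 0.429, and 0.34 without knockout replicate 5). Lgals3, galectin 3, was at 6.99, 7.75, 7.05, 7.10 and 7.46 in Gata4-LSEC-KO arrays, against 8.16, 6.47, 6.85, 7.33 and 6.64 in control arrays, and it alone peaked in control replicate 1. Its difference was 0.18 ± 0.29 (adjusted p = 0.841), or 0.45 without that array.

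**Figure D3:**
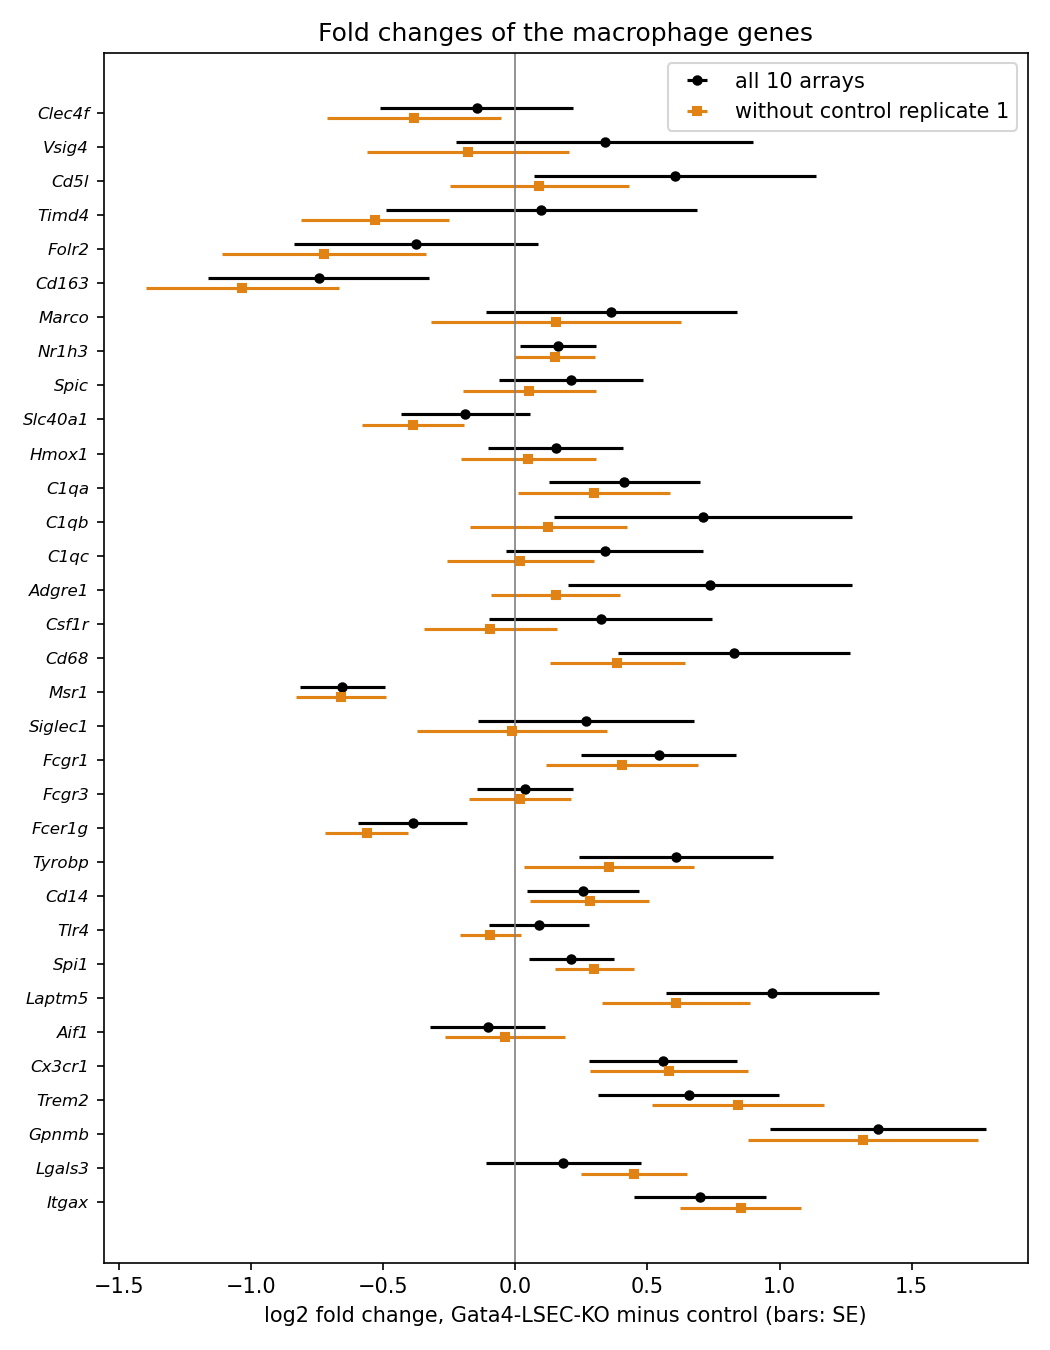
Log2 fold change of each macrophage gene, Gata4-LSEC-KO minus control, with its standard error (bars), in all 10 arrays (black circles) and without control replicate 1 (orange squares). Without that array the values of Timd4, Vsig4, Csf1r, Siglec1 and Tlr4 change sign, while Msr1 keeps its value (-0.65 and -0.66) and Gpnmb stays highest (1.37 and 1.32).

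Macrophage genes differed in how far they followed the array level of the Kupffer cell identity genes. The mean of those 8 genes ran from 6.32 to 7.38 in Gata4-LSEC-KO and from 5.36 to 7.79 in control arrays. As a description over 10 arrays, which share their hybridisation and normalization across genes, Pearson's r with that mean was 0.944 for Csf1r, 0.947 for C1qc, 0.903 for Siglec1, 0.863 for Adgre1 and 0.853 for Slc40a1. It was 0.002 for Trem2, 0.018 for Spi1, -0.107 for Cd14, 0.184 for Gpnmb, -0.347 for Msr1 and -0.375 for Itgax. Over the 9 arrays without control replicate 1 the same measure was 0.940 for Csf1r, 0.898 for C1qc, -0.245 for Msr1, -0.366 for Itgax and -0.047 for Gpnmb, and 0.843 for Aif1, which had 0.377 over 10. Outside the members, the 10 genes with the highest r were Cfp (0.979), C6 (0.974), Hk3 (0.939), Bank1 (0.930), Ptger2 (0.928), Fcna (0.927), Fabp7 (0.924), Sgpl1 (0.923), Adap2 (0.922) and Pcolce2 (0.921), and over 9 arrays they had r from 0.852 to 0.962. Cfp, C6, Fabp7 and Pcolce2 are on the list of further Kupffer cell genes described below.

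Because many members varied together from array to array, each gene was also set against the mean of Csf1r, Adgre1, C1qa, C1qb and C1qc in the same array. That measure was chosen after the data were seen and is given without a test. Cd163 minus this mean was -2.16, -2.496, -1.78, -2.61 and -1.35 in Gata4-LSEC-KO arrays 1 to 5, against -0.37, -1.09, -0.92, -0.92 and -0.84 in control arrays 1 to 5. All knockout values lay below all control values, and the means were -2.08 ± 0.52 in Gata4-LSEC-KO and -0.83 ± 0.27 in control arrays (SD, n = 5 each). Folr2 minus the same mean was -1.84, -1.24, -1.11, -1.64 and -0.64 in Gata4-LSEC-KO arrays, against -0.19, -0.44, -0.63, -0.54 and -0.28 in control arrays. Here the groups only just failed to overlap, at -0.64 for the highest knockout and -0.63 for the lowest control. Clec4f gave 0.88, 0.85, 0.61, 0.54 and 1.20 in Gata4-LSEC-KO arrays, against 2.13, 1.26, 1.21, 1.25 and 1.48 in control arrays, again with the highest knockout (1.20) next to the lowest control (1.21).

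Timd4 minus the shared macrophage mean was -1.69, -1.82, -1.40, -1.55 and -1.63 in Gata4-LSEC-KO arrays, against -2.11, -1.16, -1.02, -0.84 and -0.93 in control arrays, so it separated the groups only when control replicate 1 was left out. Cd5l, Vsig4 and Marco overlapped on this measure, with Cd5l averaging 0.70 ± 0.17 in Gata4-LSEC-KO and 0.60 ± 0.27 in control arrays. Laptm5 ran the other way, at 0.09, 0.24, 0.18, 0.52 and -0.01 in Gata4-LSEC-KO arrays, against -0.10, -0.14, -0.48, -0.15 and -0.43 in control arrays. In all, 3 of 33 members lay lower without overlap, against 0.227% of all genes, and 1 lay higher, against 0.085%. Without control replicate 1 these counts were 4 (0.235% of all genes) and 1 (0.352%). The 33 include the 5 genes of the mean, which are held near it by construction. The shares over all genes are low by construction as well, because the array spread of the 5 macrophage genes is added to every gene that does not follow them.

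The result depends on the genes taken as the macrophage level. Against the mean of 17 further pan-macrophage genes, Cd163, Nr1h3, Slc40a1, Fcer1g and Aif1 lay lower without overlap (13.6% of all genes) and 0 members lay higher (0.109%). Without control replicate 1 Timd4 joined them, which made 6 (13.8% of all genes), and 0 lay higher (0.283%). Counts of 5 and 6 of 33 are near that background, and the 17 genes themselves had a median difference of 0.82. In all 10 arrays Cd163 was the 1 member that separated the groups against both means. Without control replicate 1 it still did, and Timd4 did as well. Subtracting a mean that is higher in the knockout lowers every gene there. The 5 genes of the first mean had differences from 0.32 to 0.74, or from -0.09 to 0.30 without control replicate 1. For Cd163 the difference was -0.74 on the deposited scale and -1.25 against those 5 genes. On the deposited scale its groups overlapped.

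**Figure D4:**
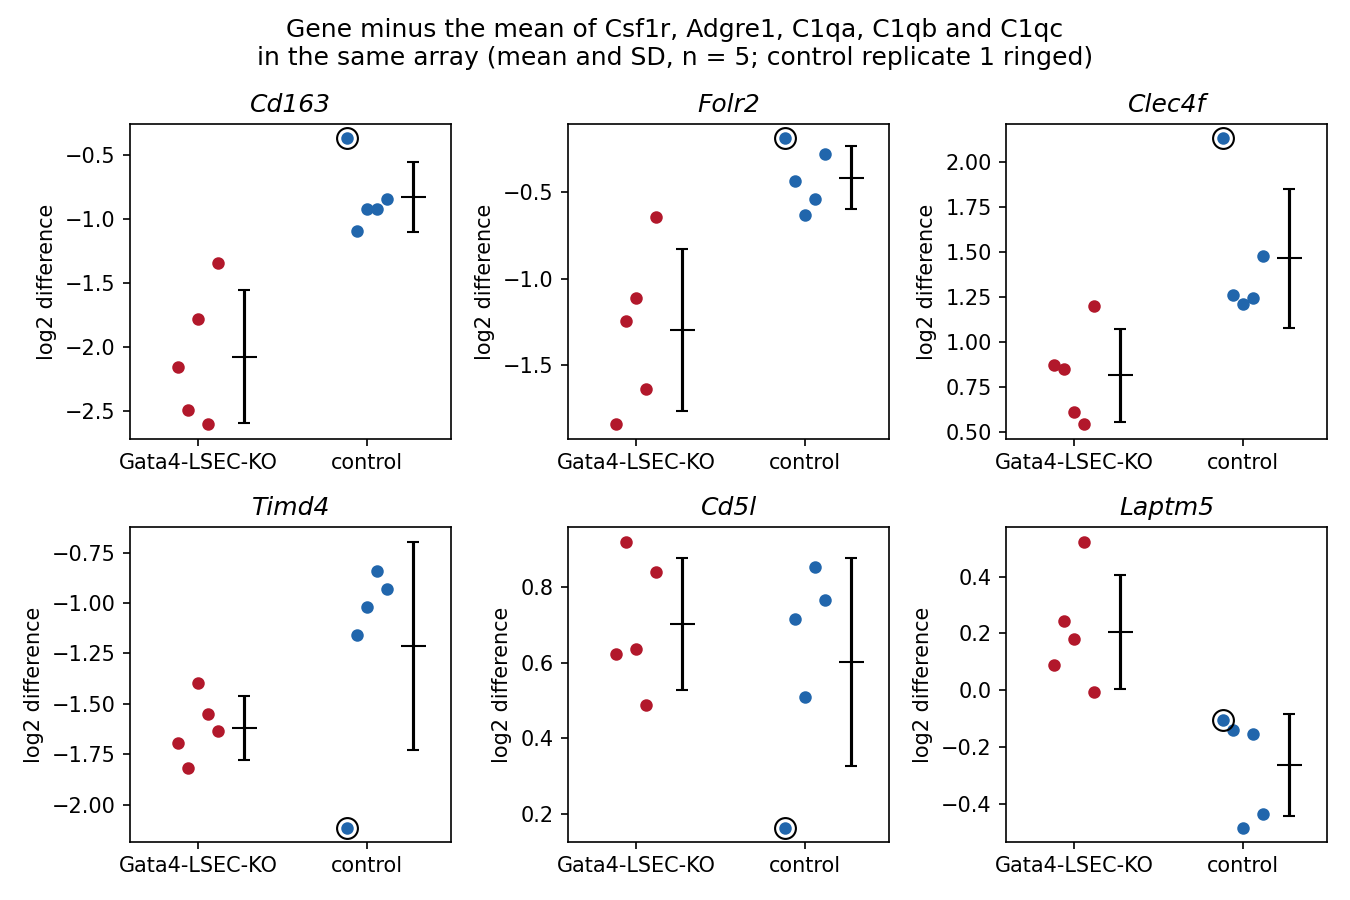
Log2 difference between a gene and the mean of Csf1r, Adgre1, C1qa, C1qb and C1qc in the same array, for 6 members, with Gata4-LSEC-KO left of control, group mean and SD (n = 5 each), and control replicate 1 ringed. Cd163 averages -2.08 in Gata4-LSEC-KO and -0.83 in control arrays without overlap, Folr2 and Clec4f separate only just, Timd4 separates only without the ringed array, Cd5l overlaps, and Laptm5 is higher in the knockout.

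Further genes of the same cells came from lists that hold no member. Of 14 further Kupffer cell genes 0 rose and 1 fell, with a median difference of -0.09. The 1 was Mertk, a receptor tyrosine kinase for the uptake of dying cells, which averaged 8.21 ± 0.13 in Gata4-LSEC-KO and 9.02 ± 0.25 in control arrays without overlap (difference -0.80 ± 0.13, adjusted p = 0.0091). Its r with the Kupffer cell identity mean was 0.184 over 10 arrays. Of 17 further pan-macrophage genes none passed, 8 had an unadjusted p under 0.05, and the median difference was 0.82. Those with the smallest p were Clec7a, the beta-glucan receptor dectin 1 (difference 1.33 ± 0.32, adjusted p = 0.0612), and Ptprc, the leukocyte antigen CD45 (difference 1.17 ± 0.29, adjusted p = 0.0652). Without control replicate 1 both passed, at 1.05 (adjusted p = 0.0381) and 0.87 (adjusted p = 0.011), and the median of the 17 was 0.47. Their list mean ran from 6.03 to 6.76 in Gata4-LSEC-KO and from 4.62 to 6.17 in control arrays. In knockout replicate 2, 13 of the 17 were highest, beside 2187 of all 24704 genes.

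Of 13 monocyte genes, 4 rose and 0 fell. Ly6c2, the surface antigen of classical monocytes, was at 5.94, 4.86, 5.01, 5.69 and 5.66 in Gata4-LSEC-KO arrays, against 2.41, 4.36, 3.58, 3.67 and 3.49 in control arrays. The groups did not overlap, and the difference was 1.93 ± 0.33 (adjusted p = 0.01), a call lost with an ordinary linear model in place of limma's moderated variance (adjusted p = 0.0606). Itgam, the integrin chain CD11b shared by monocytes and neutrophils, averaged 5.01 ± 0.25 in Gata4-LSEC-KO and 3.88 ± 0.38 in control arrays (difference 1.13 ± 0.19, adjusted p = 0.00966), and with each array centred on the further pan-macrophage genes its call was lost (difference 0.42, adjusted p = 0.236). Nr4a1, a factor of patrolling monocytes and an immediate early gene of many cells, averaged 7.47 ± 0.22 in Gata4-LSEC-KO and 6.05 ± 0.62 in control arrays (difference 1.42 ± 0.26, adjusted p = 0.0156). Its call was lost with the ordinary linear model (adjusted p = 0.0702), on the pan-macrophage centring (difference 0.71, adjusted p = 0.0805) and with the replicate number as a block (adjusted p = 0.0536). The other call was Ccr2, the chemokine receptor of classical monocytes, named here after its value was seen. Without control replicate 1 the call of Ccr2 was lost, which left 3. The block also ended the call of Ly6c2 (adjusted p = 0.0674).

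Neutrophil markers were higher as well. Of 12, 6 rose and 0 fell, and the list mean was 4.14, 6.05, 4.68, 5.49 and 4.59 in Gata4-LSEC-KO arrays 1 to 5, against 3.16, 3.25, 3.68, 3.07 and 3.13 in control arrays 1 to 5. S100a8, a calprotectin chain, averaged 6.89 ± 1.11 in Gata4-LSEC-KO and 3.73 ± 0.86 in control arrays (difference 3.16 ± 0.53, adjusted p = 0.00981, and 0.0627 with the ordinary linear model), S100a9, the other chain, differed by 2.78 ± 0.43 (adjusted p = 0.00666), and Ngp, a granule protein, by 2.72 ± 0.42 (adjusted p = 0.0063). Knockout replicate 2, the array with the highest Gpnmb, Trem2 and pan-macrophage values, was also the highest in neutrophil markers. Stellate cell markers peaked there too (8 of 10 highest, list mean 7.88, at most 7.30 in the other arrays). So did cholangiocyte markers (4 of 5 highest, list mean 6.51), beside 2187 of all 24704 genes highest there. The part of these cell types in the monocyte and recruited macrophage genes was not tested.

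Of 9 further lipid-associated macrophage genes, 1 rose and 1 fell. Mmp12, macrophage elastase, was at 6.23, 6.56, 5.33, 5.57 and 4.30 in Gata4-LSEC-KO arrays, against 3.55, 2.83, 3.43, 3.83 and 3.35 in control arrays, without overlap (difference 2.20 ± 0.37, adjusted p = 0.00926, and 0.058 with the ordinary linear model). Its order among the knockout arrays resembled that of Gpnmb at both ends, with replicate 2 highest and replicate 5 lowest. Apoe, the lipid transport protein, fell to 9.54 ± 0.09 in Gata4-LSEC-KO arrays, against 10.10 ± 0.25 in control arrays (difference -0.55 ± 0.13, adjusted p = 0.047). That call was lost when any 1 of the 5 knockout arrays or of control replicates 3, 4 and 5 was left out (highest adjusted p over all settings 0.113). Apoe was highest in control replicate 1, at 10.50, the array in which macrophage genes were lowest. Its r with the Kupffer cell identity mean was -0.37 over 10 arrays and 0.22 over 9.

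Among 20 genes of iron and haem handling outside the members, 1 rose and 1 fell. Hp, the haptoglobin whose complexes Cd163 takes up, was 6.87 ± 0.58 in Gata4-LSEC-KO and 5.26 ± 0.68 in control arrays (difference 1.60 ± 0.34, adjusted p = 0.0362). Its call was lost when knockout replicate 1, 2 or 4 was left out, and also for control replicate 2, 4 or 5, with an adjusted p from 0.0063 to 0.146 over all settings. Hp was highest in knockout replicates 1 and 4 (7.52 and 7.40), the arrays with the highest hepatocyte marker means (7.56 and 8.07). Knockout replicates 2, 3 and 5 also exceeded all controls in Hp, with hepatocyte means of 6.29 to 6.44, against 6.60 to 6.79 in controls. A part of hepatocyte RNA in Hp was not tested. Bmp2, an endothelial signal for hepcidin, the hormone that closes ferroportin, fell to 9.69 ± 0.25 in Gata4-LSEC-KO arrays, against 10.76 ± 0.11 in control arrays (difference -1.07 ± 0.13, adjusted p = 0.00134), and passed in all 18 alternative settings. Of 17 macrophage growth factors and niche signals none passed, while 7 had an unadjusted p under 0.05. The smallest p belonged to Icam1, a leukocyte adhesion molecule (difference 0.48 ± 0.13, adjusted p = 0.0884), and Pros1, protein S and a ligand of Mertk (difference -0.44 ± 0.13, adjusted p = 0.124), and without control replicate 1 Pros1 passed at -0.52 (adjusted p = 0.0381).

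Markers of other cells that a bead fraction can hold moved unevenly. Of 10 dendritic cell markers 1 rose, Cd209a (difference 2.26 ± 0.32, adjusted p = 0.00376, and 2.58 without control replicate 1). It lies 1 measured gene away from Clec4g, the gene whose sequences drive the Cre transgene. Control replicate 1 held Cd209a at 4.86, against 2.83 to 3.53 in the other controls and 5.46 to 6.24 in Gata4-LSEC-KO arrays. A part of the transgene's own sequence in these values was not tested. B cell markers (0 of 7 passed), T and NK cell markers (0 of 12), stellate cell markers (0 of 10) and red blood cell markers (0 of 4) gave no calls, with 1, 1, 5 and 0 genes at an unadjusted p under 0.05. Without control replicate 1 the B cell marker Fcer2a, a low-affinity IgE receptor gene, passed (difference 1.84, adjusted p = 0.00716, beside 1.51 ± 0.39 and 0.0813 in all arrays). It lies next to Clec4g with 0 measured genes between. Like Cd209a, Fcer2a was raised in control replicate 1, at 5.40 against 3.59 to 3.94 in the other controls. A part of the transgene's sequence was not tested for it either. Hepatocyte markers gave 1 higher (Tat) and 1 lower (Cyp2e1) of 9, with a list mean of 6.29 to 8.07 in Gata4-LSEC-KO and 6.60 to 6.79 in control arrays. None of 5 cholangiocyte markers passed, though all 5 lay above 0 at an unadjusted p under 0.05, with a list mean of 4.47 to 6.51 in Gata4-LSEC-KO and 3.61 to 4.33 in control arrays. When control replicate 1 was left out, 1 of the 5 passed, the keratin gene Krt7 (difference 1.54, adjusted p = 0.0459, beside 1.42 ± 0.35 and 0.0664 in all arrays).

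For the endothelium itself, 12 sinusoidal markers had a list mean of 10.45 to 10.92 in Gata4-LSEC-KO and 10.91 to 11.16 in control arrays, far above the array median. Of these 12, 4 fell and 0 rose, and Clec4g, whose sequences drive the Cre transgene, was among those that fell. Among the 4 was Mrc1, the mannose receptor that liver endothelium shares with macrophages, which averaged 10.90 ± 0.24 in Gata4-LSEC-KO and 11.46 ± 0.11 in control arrays (difference -0.57 ± 0.13, adjusted p = 0.044). Leaving out knockout replicate 1, 2 or 4, or any of control replicates 2 to 5, ended that call. Of 12 pan-endothelial markers 3 rose and 0 fell. The largest difference among them was that of Mcam, which encodes the antigen of the isolation beads, at 9.01 ± 0.10 in Gata4-LSEC-KO and 7.77 ± 0.19 in control arrays (difference 1.24 ± 0.11, adjusted p = 0.000242). On the pan-macrophage centring that call was lost (difference 0.53, adjusted p = 0.149). What this difference in the bead antigen does to the share of macrophages in the fraction was not tested.

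**Figure D5:**
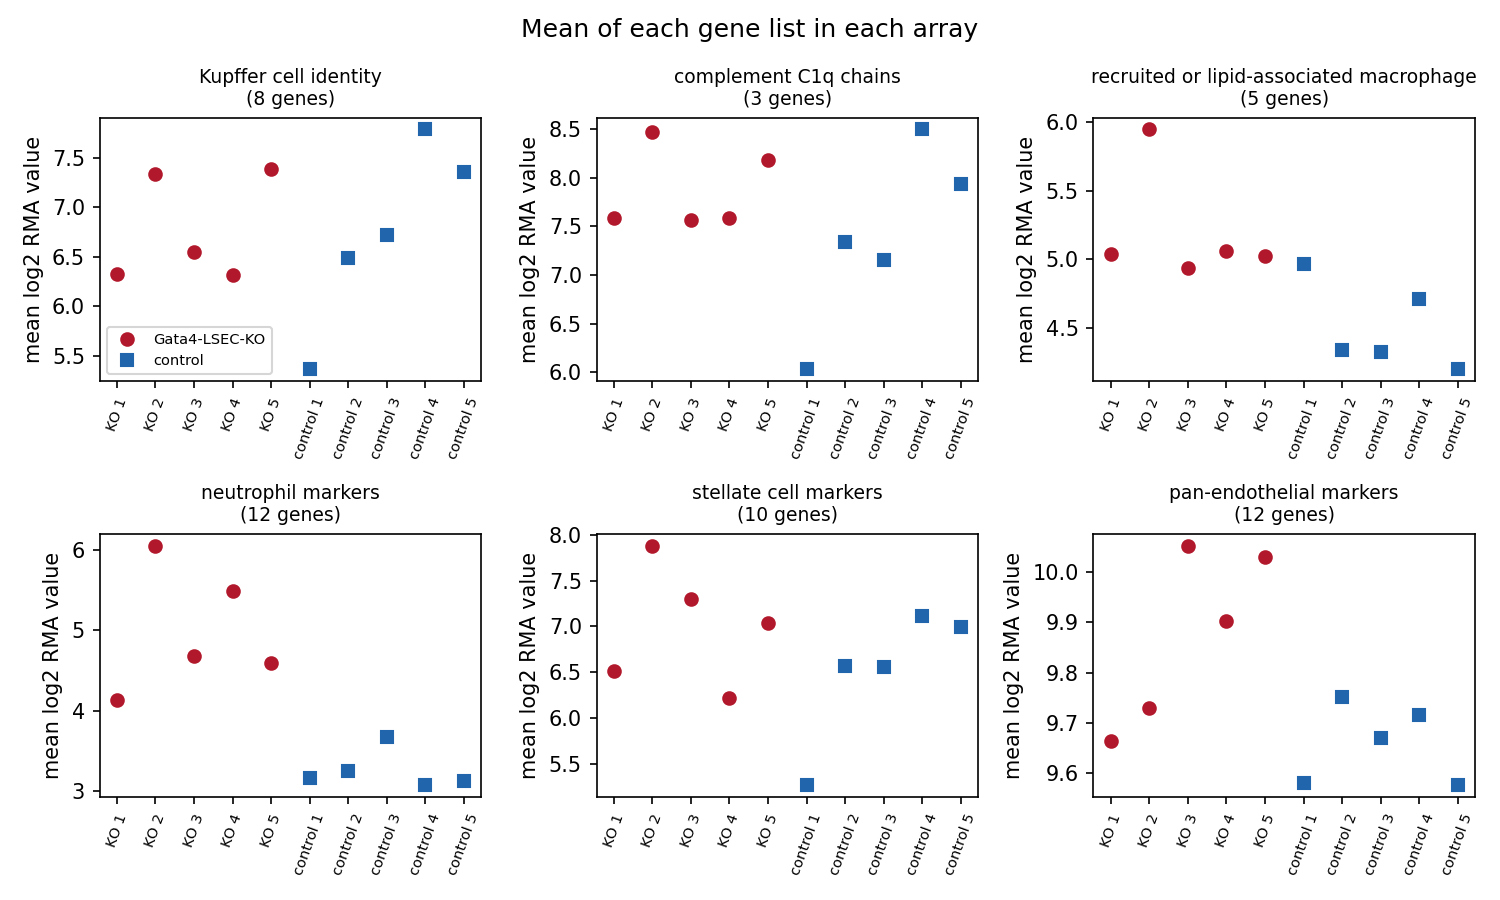
Mean log2 RMA value of 6 gene lists in each array, Gata4-LSEC-KO left (circles) and control right (squares). The Kupffer cell identity and C1q means are lowest in control replicate 1 at 5.36 and 6.03 and otherwise overlap between groups, the neutrophil mean lies at 4.14 to 6.05 in Gata4-LSEC-KO and 3.07 to 3.68 in control arrays, and the stellate mean is lowest in control replicate 1 at 5.26.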

How the data were processed

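RNA of CD146-selected liver cells from 5 Gata4-LSEC-KO and 5 control pools was hybridised to 1-colour Affymetrix arrays. Per the submitters' processing notes, the authors made the deposited log2 values with RMA, of unstated version. The log2 scale was judged from the range of the values. Sorted values matched exactly between 9 of 10 arrays, the largest gap to the other array being 0.00186, so nothing was normalized again. No source used here gives the array design, the probe positions or a genome build, and no detection calls were used, so no gene is called absent.

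Of 25428 probe sets, 24705 carried a single symbol in the platform annotation, 0 carried several, and 723 without one were left out. The RefSeq table of GRCm38.p6 held 24673 of their Entrez numbers, and 0 symbols were updated. The brighter probe set stood for the 1 symbol with several, which left 24704 genes. No column was unused.

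Groups were compared with limma 3.58.1 in R 4.3.3 (lmFit and eBayes, all 10 arrays, no covariates, no filter, tests in both directions), with Benjamini-Hochberg adjustment over the 24704 genes. The procedure was tested on simulated data. Replicate numbers did not pair the arrays: same-numbered arrays of the 2 groups had correlations of -0.165 to 0.039 in their deviations from the group means. The number of arrays limits the precision.

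The members, the 16 other lists and the tests were chosen with earlier results of these data known. All members are named. From each other list came the up to 3 most changed genes past the threshold, or the 2 with the smallest p, where the text gives values, with Gata4 and the 10 nearest genes. The 18 alternatives were array weights, centring on the 17 measured further pan-macrophage genes (also without control replicate 1) or on pan-endothelial markers, a filter on dim genes, an intensity trend with robust variance, an ordinary linear model, a replicate block, and each array left out. The centring without control replicate 1 and the within-array differences were added after the data were seen. Promoters were read from RefSeq, and those shown were cut at the base before any annotated transcript. Figures were drawn with matplotlib 3.10.9.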

Additional observations from a re-analysis of the deposited data

Results flagged for a closer look

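In groups of 5 arrays, the gap between the highest or lowest value and its nearest neighbour was divided by the group's range and set against Dixon's critical value of 0.71. Of the 108 groups tested for the genes with values in the text, 6 held such an array, and chance alone gives about 1 in 20. Among the members, Adgre1 was lowest in control replicate 1 at 3.75, with a gap share of 0.711. Fcer1g, the Fc receptor gamma chain, was lowest among the controls in the same array at 8.04 (gap share 0.948). Trem2 was highest in Gata4-LSEC-KO replicate 2 at 6.40 (gap share 0.736). Outside the members, Pros1, a ligand of Mertk, was lowest among the controls in control replicate 1 at 9.36 (gap share 0.803), and the neutrophil granule gene Ngp in control replicate 5 at 2.12 (gap share 0.774). The B cell marker Fcer2a was highest among the controls in control replicate 1 at 5.40 (gap share 0.807).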

How the results depend on the processing

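Over all genes, the 529 calls (320 higher and 209 lower in Gata4-LSEC-KO) became 1070 (616 and 454) with array weights, in which control replicate 1 weighed 0.203, and 324 (169 and 155) with an ordinary linear model. With the replicate block, although the numbers did not pair the arrays and 0 of 5 correlated best with their own number, there were 275 calls (200 and 75) and 0 members, and the cause of the lower count was not tested. Centring each array on the further pan-macrophage genes gave 1623 calls (68 and 1555), the same without control replicate 1 gave 3301 (205 and 3096), and centring on pan-endothelial markers gave 953 (170 and 783). These centrings brought the median of all genes to -0.73, -0.49 and -0.24, so the signs under them are those of genes relative to the chosen set. Leaving out 1 array at a time gave 287 to 737 calls, with 182 to 394 higher and 105 to 343 lower, and 0 to 1 members.

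The count of members past the threshold, 0 in the main fit, was 2 with array weights (Gpnmb and Itgax), beside 1070 of all 24704 genes. On the pan-macrophage centring it was 4 (Folr2, Cd163, Msr1 and Fcer1g), beside 1623 genes. Without control replicate 1 that centring gave 8 (Clec4f, Timd4, Folr2, Cd163, Slc40a1, Msr1, Fcer1g and Gpnmb), beside 3301 genes. In that fit each of these 8 had the same standard error, 0.267, so a gene's own spread did not enter its p. Msr1 alone passed with the pan-endothelial centring (953 genes), the intensity trend (527) and the filter on dim genes (592 of 12352). Without Gata4-LSEC-KO replicate 5 Gpnmb passed, beside 550 genes, and without control replicate 4 Msr1 did, beside 321. Of 593 member values under alternatives, 507 kept direction and side of the threshold, 18 newly passed it and 68 changed sign. Of 378 values of the other named genes, 319 kept both, 39 lost the call, 19 gained it and 1 changed sign. The ordinary linear model ended the calls of Apoe, Hp, Ly6c2, Mmp12, Mrc1, Nr4a1 and S100a8, and the pan-macrophage centring those of Hp, Itgam, Mcam and Nr4a1. The replicate block ended those of Apoe, Hp, Ly6c2, Mrc1 and Nr4a1.

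Sign changes are listed as log2 differences, Gata4-LSEC-KO minus control. With array weights they were Vsig4 -0.17, Timd4 -0.50, Csf1r -0.11, Siglec1 -0.14, Fcgr3 -0.069 and Tlr4 -0.087. On the pan-macrophage centring they were Vsig4 -0.37, Cd5l -0.10, Timd4 -0.61, Marco -0.34, Nr1h3 -0.54, Spic -0.50, Hmox1 -0.55, C1qa -0.30, C1qc -0.37, Csf1r -0.38, Siglec1 -0.44, Fcgr1 -0.16, Fcgr3 -0.67, Tyrobp -0.098, Cd14 -0.45, Tlr4 -0.62, Spi1 -0.49, Cx3cr1 -0.15, Trem2 -0.052, Lgals3 -0.53, Itgax -0.0078 and Icam1 -0.22. On that centring without control replicate 1 they were Vsig4 -0.65, Cd5l -0.38, Timd4 -1.0008, Marco -0.32, Nr1h3 -0.32, Spic -0.42, Hmox1 -0.42, C1qa -0.17, C1qb -0.34, C1qc -0.45, Adgre1 -0.32, Csf1r -0.56, Cd68 -0.083, Siglec1 -0.48, Fcgr1 -0.067, Fcgr3 -0.45, Tyrobp -0.11, Cd14 -0.19, Tlr4 -0.56, Spi1 -0.17 and Lgals3 -0.021. On the pan-endothelial centring they were Timd4 -0.12, Nr1h3 -0.055, Spic -0.0066, Hmox1 -0.064, Fcgr3 -0.18, Tlr4 -0.13, Spi1 -0.0048 and Lgals3 -0.037. Over the fits with 1 array left out, the ranges of the members that changed sign in any were Aif1 -0.24 to 0.042, Clec4f -0.38 to 0.081, Csf1r -0.095 to 0.61, Fcgr3 -0.060 to 0.17, Hmox1 -0.047 to 0.28, Siglec1 -0.013 to 0.52, Timd4 -0.53 to 0.47, Tlr4 -0.095 to 0.19 and Vsig4 -0.18 to 0.68. The causes were not tested.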
